A study of Homo sapiens with 8 samples.

Results

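The response to 5-aza-dC was examined in *TET1* knockdown clones derived from HCT116, an established line of human colorectal cancer cells, using 4 of the 8 expression arrays of the series. TET1-KD1 and TET1-KD2 were stable clones that each expressed a different artificial miRNA against *TET1*, and each was 1 clone grown under drug selection. Each clone was hybridized once untreated and once after 1 µM 5-aza-dC for 72 h, so a condition has n = 2 arrays from 2 different clones. The other 4 arrays hold the control clones CONT1 and CONT2, which carried a plasmid with a negative control miRNA, with and without the same treatment. The arrays were chosen by their titles. A separate treatment field names the drug for all 4 knockdown arrays and a mock treatment for all 4 control arrays, which conflicts with the titles, and the titles were followed. The 4 knockdown arrays lay on 1 slide, the untreated ones in its first row and the treated ones in its second row, so the row on the slide and the treatment cannot be told apart.

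5-aza-dC is a cytidine analog that is built into DNA during replication and traps DNA methyltransferases, so that methylation is lost as cells divide. Methylated promoters are usually silent, and the genes best known to depend on this silencing are germline genes, such as the cancer-testis antigens, together with genes that acquire promoter methylation in tumors. *TET1* encodes an enzyme that oxidizes 5-methylcytosine, a step toward its removal.

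Signals are given as log2 of the background-subtracted intensity after each array was scaled to its 75th percentile, which was between 574.3 and 623.7 on the 4 arrays. Between 23595 and 25099 probes per array were above background in the untreated clones, and 27201 and 27763 in the treated clones. No spot was saturated. The 8 brightest spike-in transcripts differed between treated and untreated arrays by -0.054 to 0.066, and the other 2, which lay near background, differed by -0.336 and -0.46. Epithelial identity was checked with 10 colorectal markers, of which 7 passed the filter on dim probes. *KRT19* had log2 signals of 17.68 and 17.60 in untreated TET1-KD1 and TET1-KD2 and of 17.73 and 17.68 after treatment, and *CEACAM5* and *CEACAM6* were not above background on any of the 4 arrays. The brightest *TET1* probe gave 8.65 in TET1-KD1 and 9.41 in TET1-KD2 untreated, 8.99 and 9.48 treated, and 9.70 and 9.75 in the untreated control clones. *TET1* thus differed by 0.20 between treated and untreated knockdown clones (SE 0.36, adjusted p = 0.784 in limma).

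The promoters of 6 genes described below are shown as RefSeq gives them in GRCh38.p14, from 250 bases before to 50 bases after the transcription start, read 5′ to 3′ on the gene's strand. CG dinucleotides, the sites that carry methylation, are in capitals. They read the same on both strands, and 96% of the 35116 promoters in the table hold at least 1. *TKTL1*, *UCHL1* and *XAGE1A* are among the largest rises, *SOHLH1* and *DDX43* have the largest rises in the list of meiosis and piRNA genes, and *HIST1H3B* (current symbol H3C2) is the histone gene with the largest fall among those called.
TKTL1 (chrX:154295545-154295844, plus strand, 18 CG): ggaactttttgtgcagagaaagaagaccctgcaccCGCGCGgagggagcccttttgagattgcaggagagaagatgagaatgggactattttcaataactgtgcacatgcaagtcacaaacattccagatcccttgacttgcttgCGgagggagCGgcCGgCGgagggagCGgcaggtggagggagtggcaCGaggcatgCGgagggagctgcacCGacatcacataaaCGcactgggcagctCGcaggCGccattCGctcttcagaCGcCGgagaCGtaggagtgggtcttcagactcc
UCHL1 (chr4:41256678-41256977, plus strand, 25 CG): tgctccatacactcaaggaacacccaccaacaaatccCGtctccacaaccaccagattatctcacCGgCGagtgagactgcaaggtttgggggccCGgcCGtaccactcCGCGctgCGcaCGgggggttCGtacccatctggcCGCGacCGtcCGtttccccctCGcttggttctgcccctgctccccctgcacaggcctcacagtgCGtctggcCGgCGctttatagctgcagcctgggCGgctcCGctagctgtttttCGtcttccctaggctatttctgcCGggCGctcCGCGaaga
XAGE1A (chrX:52495558-52495857, plus strand, 15 CG): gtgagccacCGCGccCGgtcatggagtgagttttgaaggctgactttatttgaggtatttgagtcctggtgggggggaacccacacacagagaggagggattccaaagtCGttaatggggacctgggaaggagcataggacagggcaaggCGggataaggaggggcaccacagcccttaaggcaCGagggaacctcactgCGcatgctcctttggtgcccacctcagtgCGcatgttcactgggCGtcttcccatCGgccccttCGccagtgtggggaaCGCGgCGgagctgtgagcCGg
SOHLH1 (chr9:135699432-135699731, minus strand, 25 CG): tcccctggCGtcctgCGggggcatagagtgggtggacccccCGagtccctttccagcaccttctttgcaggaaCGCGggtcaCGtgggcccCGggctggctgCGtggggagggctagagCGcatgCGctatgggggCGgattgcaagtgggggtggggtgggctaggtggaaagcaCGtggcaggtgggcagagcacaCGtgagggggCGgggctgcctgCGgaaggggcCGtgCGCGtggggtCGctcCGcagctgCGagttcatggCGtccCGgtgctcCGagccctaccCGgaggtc
DDX43 (chr6:73394578-73394877, plus strand, 21 CG): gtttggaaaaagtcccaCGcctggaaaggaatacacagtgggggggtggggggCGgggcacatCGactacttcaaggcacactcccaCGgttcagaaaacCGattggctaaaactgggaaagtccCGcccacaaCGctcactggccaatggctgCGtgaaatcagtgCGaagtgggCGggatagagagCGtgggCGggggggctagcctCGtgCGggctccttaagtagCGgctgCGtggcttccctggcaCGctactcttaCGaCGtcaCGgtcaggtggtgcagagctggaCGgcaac
H3C2 (chr6:26032050-26032349, minus strand, 6 CG): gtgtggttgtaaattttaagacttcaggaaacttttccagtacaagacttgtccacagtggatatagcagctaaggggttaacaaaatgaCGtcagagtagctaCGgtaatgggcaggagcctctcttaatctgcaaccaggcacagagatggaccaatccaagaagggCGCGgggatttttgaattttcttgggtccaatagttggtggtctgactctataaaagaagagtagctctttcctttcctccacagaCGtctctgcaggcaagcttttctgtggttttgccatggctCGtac

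The 5 promoters of genes that rose hold 15 to 25 CG, and between 32.0% and 48.9% of all promoters hold at least as many. The histone promoter holds 6, a number that 66.3% of all promoters reach. The promoters shown belong to single genes chosen for their change and do not describe the genes that rose or fell as groups. A promoter was found for 11743 of the 15135 tested genes and for 651 of the 930 that rose, under 80% in each case. Among genes with a promoter, the median was 25 CG for all tested genes and 16 for those that rose. Promoters under 10 CG made up 17.6% and 36.9%. None of the 5 promoters of genes that rose exceeds the median of all tested genes. Of 399 promoters of tested genes above background on neither untreated array and not called up, 41.1% were under 10 CG. Low CG content was thus not particular to genes that rose. These differences were not tested, and genes without a promoter may differ.

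Most genes called after 5-aza-dC in the knockdown clones had risen, although more genes on the array had a lower signal in both clones (46.8%) than a higher one in both (29.8%). Of 15135 tested genes, each represented by its brightest probe, 930 rose (6.14%) and 44 fell (0.291%) at an adjusted p-value below 0.05 in limma. Among all 27287 tested probes, 1614 were called up (5.91%) and 73 down (0.268%). The median log2 difference was 3.58 among genes that rose, or 2.28 with rises from background taken at the lower bound described below, and -1.43 among those that fell, whereas over all tested genes it was -0.073. In these bulk samples, a change in the share of cells with a transcript and a change in the amount per cell cannot be told apart. Of the 930 that rose, 685 (73.7%) were above background on neither untreated array and on both treated arrays, and 181 (19.5%) were above background on all 4. Of the 44 that fell, 38 (86.4%) were above background on all 4 arrays.

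With the clone as a block, which sets each treated culture against the untreated one of that clone, 1330 genes rose (8.79%) and 124 fell (0.819%). A fit restricted to the 22736 probes above background on all 4 arrays called 75 up and 0 down, with 1580 and 2543 at an unadjusted p-value below 0.05, and a test on the unmoderated variance of each probe called none, with 2413 and 2087 at an unadjusted p-value below 0.05. Without the untreated TET1-KD1 array 866 probes rose and 18 fell, without untreated TET1-KD2 982 and 23, without treated TET1-KD1 1751 and 48, and without treated TET1-KD2 1143 and 5.

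**Figure D1:**
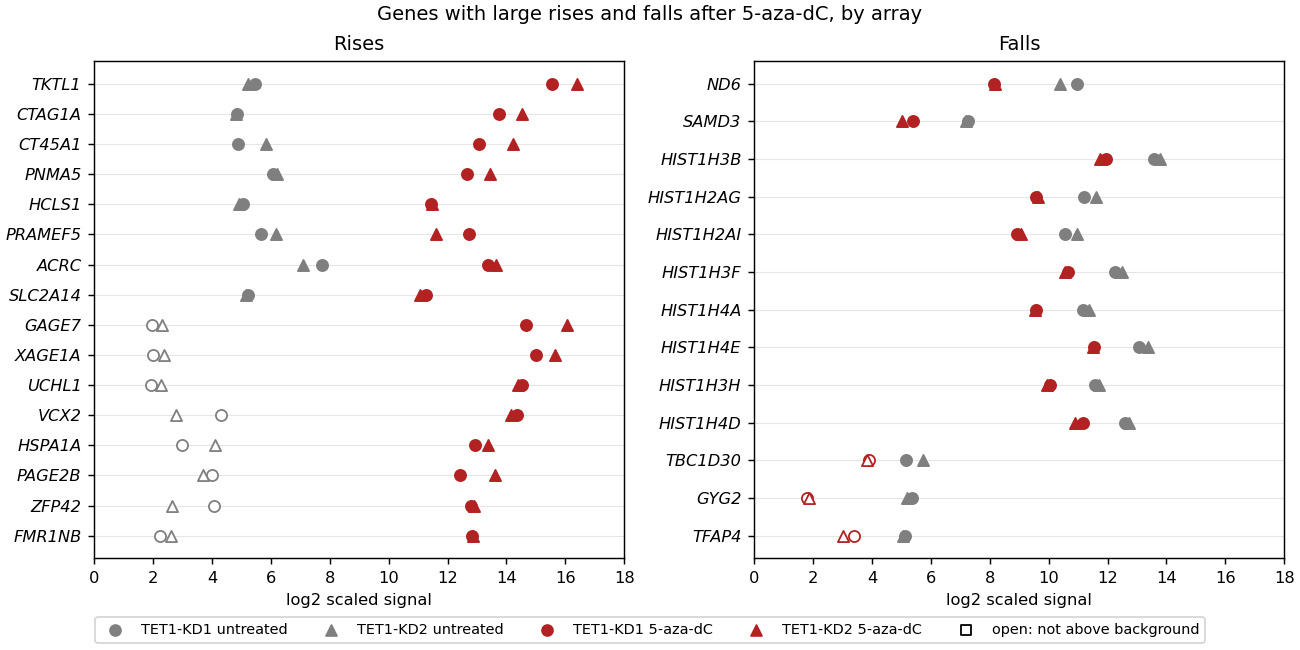
Log2 scaled signal (x axis) of genes with large rises (left) and large falls (right) on the 4 knockdown arrays, gray for untreated, red for 5-aza-dC, circles for TET1-KD1 and triangles for TET1-KD2, open where the probe was not above background. Treated and untreated signals do not overlap for any gene drawn, which were chosen for their difference.

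Among genes already above background in both untreated clones, the largest rise was that of *TKTL1*, which encodes a transketolase-like protein (probe on chromosome X, 153558624 to 153558683 in hg19). Its log2 signals were 5.46 and 5.23 untreated and 15.56 and 16.40 treated, a difference of 10.63 (SE 0.34, adjusted p = 0.00308, limma), or 1590-fold. *CTAG1A*, of the NY-ESO-1 antigen family, went from 4.86 and 4.81 to 13.74 and 14.52, and *CT45A1* from 4.90 and 5.84 to 13.08 and 14.24. Of the 8 genes in this class with the largest rises, 5 are on chromosome X, which holds 526 of the 15135 tested genes. The 8 were chosen for large rises in both clones, so the gap between their treated and untreated signals was set by that choice. The others were *PNMA5* (log2 difference 6.91), *HCLS1*, a signaling protein of blood cells (6.47), *PRAMEF5* (6.26), *ACRC*, now named GCNA, a germ cell protein (6.10), and *SLC2A14*, a glucose transporter gene (5.98).

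For a gene not above background before treatment, the rise is given as a lower bound, of the treated mean against the lowest signals that were above background on the untreated arrays. *UCHL1*, which encodes a neuronal deubiquitinase and whose promoter is shown above, had signals of 1.92 and 2.27 untreated and of 14.52 and 14.38 treated, a rise of at least 1060-fold (adjusted p = 0.00308, limma). *GAGE7* rose at least 1990-fold and *XAGE1A* at least 1960-fold, from untreated signals between 1.95 and 2.36 to treated signals between 14.66 and 16.06. Both are cancer-testis antigens with near-identical relatives, so their probes are uncertain between family members. *VCX2* (at least 879-fold), *PAGE2B* (at least 392-fold) and *FMR1NB* (at least 346-fold) are further X-linked testis genes. *HSPA1A*, a heat shock protein gene with a near-identical copy, had 2.99 and 4.11 untreated and 12.93 and 13.36 treated (at least 428-fold), and *ZFP42*, a zinc finger gene of pluripotent cells, rose at least 351-fold.

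The share of each gene list that was called is read against all 19868 genes on the array, of which 4.68% rose and 0.221% fell, because many genes that were not above background before treatment entered the test through their signal in treated cells. Of 62 X-linked cancer-testis antigens on the array, 48 passed the filter and 33 rose (53.2%), and 0 fell. The median log2 difference over all 62 was 3.11, or 3.02 with rises from background at their bound, against -0.11 over all genes on the array. The rises ranged widely, from that of *GAGE7*, given above, to that of *SSX5*, which went from 4.51 and 4.44 to 6.13 and 6.39. The brightest members that were not called were expressed before treatment. *FTHL17*, related to ferritin heavy chain, had signals of 16.13 and 14.99 untreated and 15.33 and 14.38 treated. *MAGEA6* had 14.03 and 13.91 untreated and 14.29 and 14.68 treated, and *MAGEB2* had 13.71 and 13.64 untreated and 13.95 and 13.93 treated. In *MAGEA6* and *MAGEB2* the treated signals were the higher ones, by 0.51 and 0.26, and neither passed the test. In the fit of probes above background on all 4 arrays, 7 members of this list rose.

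The genes of meiosis and of the piRNA pathway, which silences transposons in germ cells, numbered 78 on the array. Of these 56 passed the filter, 32 rose (41.0%) and 0 fell. Of all 78, 21 were lower in both clones, but only 8 of the 56 that passed the filter were. Members above background on none of the 4 arrays numbered 21. The median log2 difference over all 78 was 1.06, or 0.90 with rises from background at their bound. *SOHLH1*, a transcription factor of early germ cells, went from 2.03 and 2.38 to 10.42 and 11.71, a rise of at least 101-fold. *DDX43*, an RNA helicase, went from 2.03 and 2.42 to 9.94 and 10.58 (at least 58.1-fold), and *DPPA2*, a chromatin protein of germ and stem cells, from 2.10 and 2.49 to 9.83 and 10.44 (at least 53.2-fold). All 3 were at background in both untreated clones and well above it in both treated ones. Members named after their values were seen were *DAZL*, which binds RNA in germ cells (at least 40.1-fold), *MAEL* of the piRNA pathway (at least 35.7-fold), *SYCP3* of the synaptonemal complex (at least 33-fold) and *PIWIL2*, a piRNA-binding protein (at least 8.94-fold), and each passed the test. *GTSF1* was already bright, with 14.04 and 14.03 untreated and 13.63 and 13.48 treated, and was not called (adjusted p = 0.25, limma). Of this list, 3 members rose in the fit of probes above background on all 4 arrays.

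**Figure D2:**
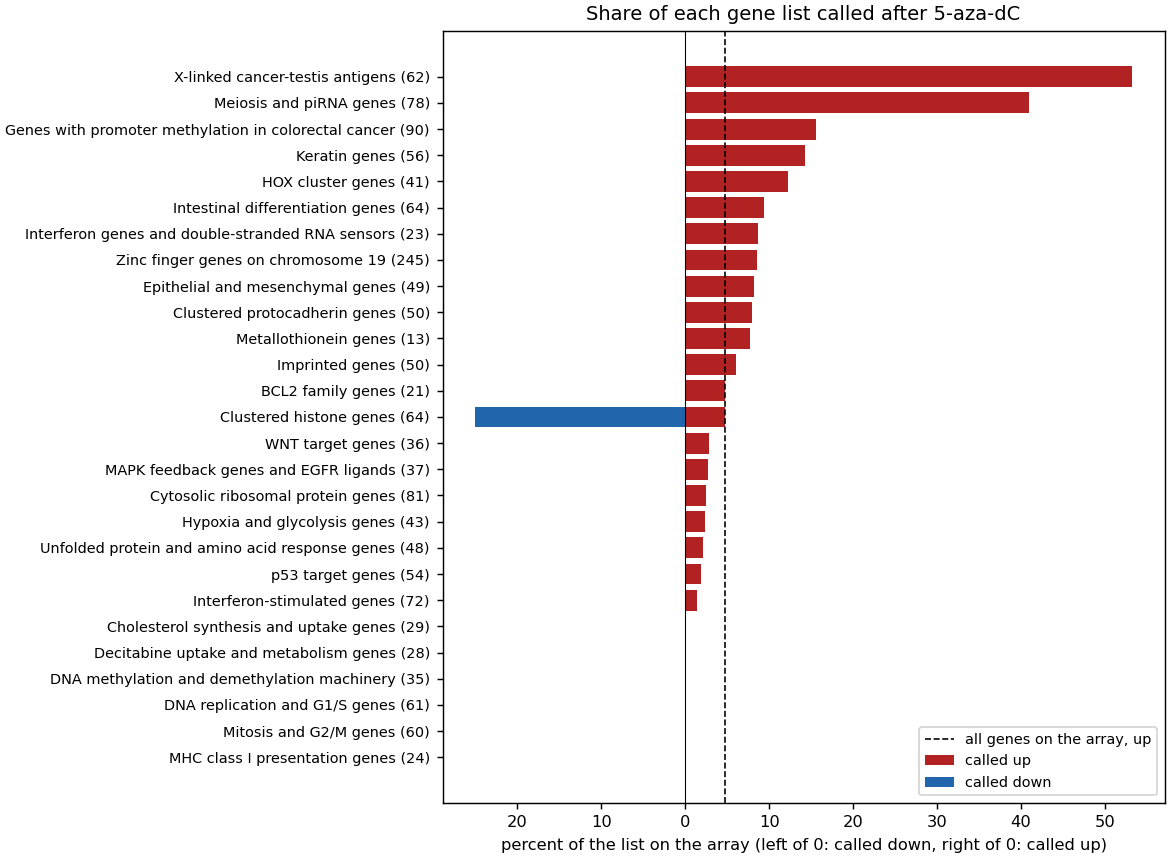
Percent of the genes of each list on the array (number in brackets) that were called up (red, right of 0) and down (blue, left of 0) after 5-aza-dC in the knockdown clones, with the dashed line at 4.68%, the share of all genes on the array called up. Cancer-testis antigens and meiosis genes stand at 53.2% and 41.0%, and the histone list is the only one drawn with members called down (25%).

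The small nucleolar RNA genes *SNORD113* and *SNORD114*, repeated copies inside the imprinted *DLK1*-*MEG3* region of chromosome 14, rose together. This family was picked after its values were seen. All 37 of its genes on the array had a higher signal after treatment in both clones, compared with 29.8% of all genes on the array. Of these, 29 passed the filter and 28 were called up. All 29 passed through treated arrays only, since none was above background in either untreated clone, so a high share of calls was favored in advance. The untreated signals of these 28 were 1.92 to 2.34 in TET1-KD1 and 2.28 to 3.46 in TET1-KD2, all not above background, and the treated signals were 4.51 to 9.80 and 4.41 to 10.46. *SNORD114-21* rose most, from 2.19 and 2.57 to 9.80 and 10.46 (at least 53-fold, adjusted p = 0.00308, limma). *SNORD114-16* rose least, from 1.96 and 2.33 to 4.51 and 4.41 (at least 1.04-fold). *SNORD113-4*, the member not called, had 4.29 and 2.68 untreated and 5.79 and 6.26 treated (adjusted p = 0.113). The copies are similar in sequence, so their probes may share transcripts.

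**Figure D3:**
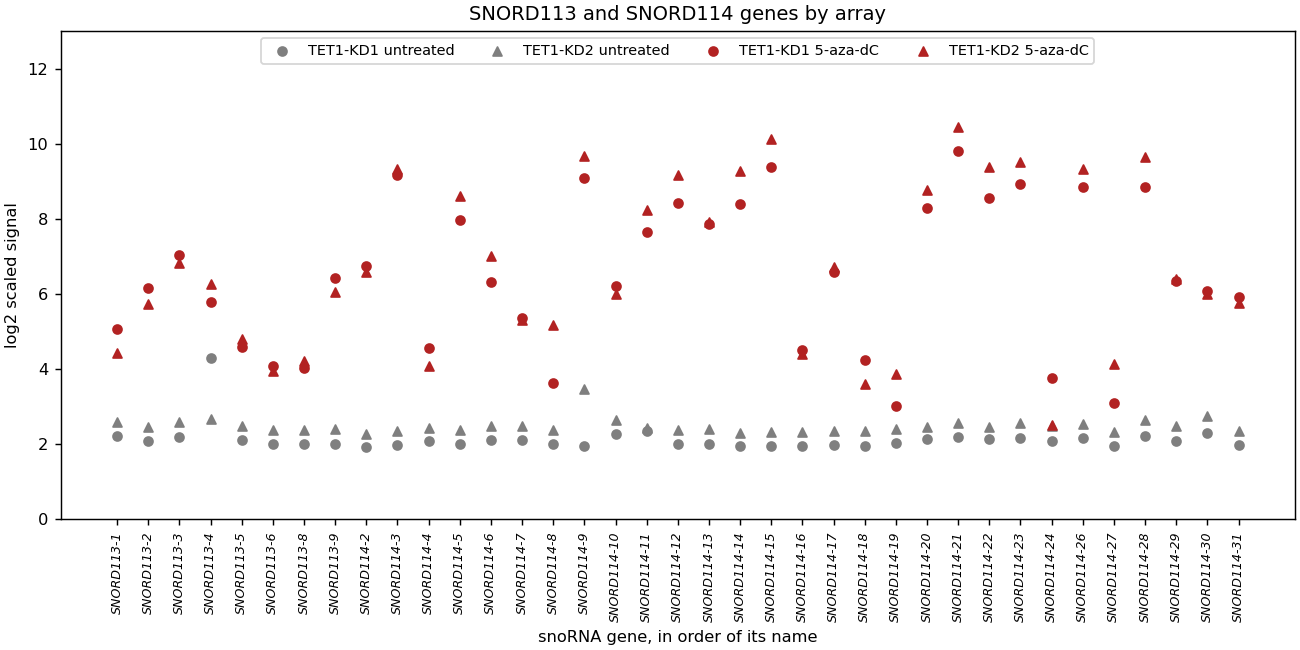
Log2 scaled signal (y axis) of the 37 SNORD113 and SNORD114 genes on the array (x axis, by name) on the 4 knockdown arrays, gray for untreated and red for 5-aza-dC, circles for TET1-KD1 and triangles for TET1-KD2. Untreated signals lie mostly between 1.9 and 2.7, and treated signals reach 10.46.

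Other genes of the region were also examined. *MEG8*, a noncoding RNA gene, rose from 3.88 and 2.63 to 7.05 and 6.73 (at least 5.62-fold, adjusted p = 0.0248, limma). *MEG3*, a noncoding RNA gene that was expressed before treatment, had 9.35 and 9.52 untreated and 10.45 and 10.55 treated, and its difference of 1.06 was called only with the clone as a block (adjusted p = 0.0577, and 0.0419 with the block). *DLK1* differed by 0.90 (adjusted p = 0.31), *DIO3* by 1.60 (adjusted p = 0.22), and *RTL1* was not above background on any of the 4 arrays. Of the imprinted snoRNA families of chromosome 15, 0 of 12 *SNORD115* and 0 of 11 *SNORD116* genes were above background on any of the 4 arrays, with median differences of -0.35 and -0.34, which show how far a probe at background shifted between treated and untreated arrays. Of 239 other snoRNA genes, 211 passed the filter and 1 rose.

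A second family picked after its values were seen was *PRAMEF*, relatives of the tumor antigen gene *PRAME* that lie in tandem on chromosome 1. Of its 15 genes on the array, 12 were called up (80.0%), against 4.68% of all genes on the array. Of these 12, 11 were not above background in either untreated clone and passed the filter through treated arrays. A high share of calls was thus favored in advance. The lower bounds of these 11 rises went from 1.55-fold for *PRAMEF20* to 104-fold for *PRAMEF13*. *PRAMEF22* was not tested and was lower in both clones, with 3.64 and 6.0 untreated and 1.99 and 2.06 treated. *PRAMEF12* went from 1.95 and 2.31 to 10.17 and 10.22. The copies are closely similar, so the number of separate genes that rose is uncertain.

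Of 90 genes with known promoter methylation in colorectal cancer on the array, 56 passed the filter, 14 rose (15.6%) and 0 fell. Besides *UCHL1*, rises included those of *CDO1*, a cysteine-degrading enzyme, from 3.24 and 3.60 to 9.55 and 10.80, and of *NPTX2*, a neuronal pentraxin, from 1.94 and 2.30 to 7.36 and 9.26. *SOX17*, an antagonist of WNT signaling, went from 2.08 and 2.46 to 6.95 and 7.61, a rise of at least 7.37-fold (adjusted p = 0.00468, limma). *SFRP1*, a secreted WNT inhibitor, went from 2.23 and 2.82 to 6.21 and 7.02, a rise of at least 4.63-fold (adjusted p = 0.011). *DKK3* had 3.67 and 2.36 untreated and 5.52 and 5.66 treated and was not called (adjusted p = 0.0673). *SFRP2* was not tested, since its signals of 2.00 and 3.61 untreated and 3.20 and 4.60 treated were above background only in treated TET1-KD2. Members with bright untreated signals, such as *SEPT9* (15.82 and 15.92 untreated, 16.02 and 15.74 treated), were not called. The count was 9 without the untreated TET1-KD2 array, 8 with normexp background correction and 7 with an offset of 50, against 14.

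Several families of tissue genes had members that rose from background. Of 56 keratin genes on the array, 8 rose (14.3%), led by *KRT12*, a keratin of the cornea (2.13 and 2.50 to 8.77 and 10.15), and including *KRT17* and *KRT14*, keratins of stratified epithelium (at least 5.83-fold and 6.19-fold). *KRT8*, *KRT18* and *KRT19*, the keratins of simple epithelium, were bright throughout and not called. Of 245 zinc finger genes on chromosome 19, 21 rose (8.57%), among them *ZNF671* (2.02 and 2.41 to 8.35 and 8.52), *ZNF256* (2.17 and 2.50 to 7.94 and 8.05) and *ZNF260*, and the count was 7 with normexp correction and 31 with the clone as a block. Among 41 HOX genes 5 rose (12.2%), among them *HOXD13* (at least 4.24-fold), *HOXD1* (at least 3.37-fold) and *HOXB2*, which went from 7.88 and 7.46 to 10.14 and 10.58, and *HOXA9*, at 12.77 and 13.26 untreated, was not called. Clustered protocadherin genes, which label single neurons, were mostly silent: 29 of 50 were above background on none of the 4 arrays, and 4 rose from background, among them *PCDHB2* (at least 1.88-fold).

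Intestinal and mesenchymal genes changed in single members. Shares called up were 9.38% of intestinal, 8.16% of epithelial and mesenchymal and 6.0% of imprinted genes. The share over all genes on the array was 4.68%. Of 64 intestinal differentiation genes 6 rose, among them *ASCL2*, a transcription factor of intestinal stem cells (1.99 and 2.33 to 7.34 and 8.80), *CHGA* of endocrine cells (1.93 and 2.29 to 6.12 and 7.09) and *KRT20* of mature colonocytes (5.14 and 4.41 to 8.87 and 9.20). *CDX2*, which specifies intestinal cells, had 10.50 and 10.33 untreated and 10.60 and 10.80 treated and was not called. Of 49 epithelial and mesenchymal genes 4 rose, and 8 did so with the clone as a block. They included the mesenchymal genes *THY1*, *VIM* and *SPARC*. *VIM*, which encodes vimentin, was expressed before treatment and went from 7.92 and 7.23 to 12.79 and 13.37, or 45.4-fold (adjusted p = 0.00493, limma). Of 50 imprinted genes 3 rose, namely *ASCL2*, *MEG8* and *NNAT*, a neuronal proteolipid gene (7.27 and 7.45 to 10.43 and 10.95), and 8 did so with the clone as a block.

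Markers of cell types foreign to an epithelial line moved in part. Of 6 endothelial markers *CLDN5* and *VWF* rose, and of 8 fibroblast markers none rose. The summed linear signal of the endothelial list was 120 and 111 untreated and 236 and 347 treated, that of the fibroblast list 463 and 360 untreated and 798 and 654 treated, and that of the leukocyte list 3150 and 3540 untreated and 3000 and 3920 treated. *KDR*, *CD2*, *CD3E*, *FCGR3A*, *COL1A2*, *COL3A1*, *FAP*, *LUM* and *PDGFRA* were not above background on any of the 4 arrays. Their part in the responses was not tested.

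The falls were fewer and smaller, from 1.12 to 3.44 in size on the log2 scale, and 16 of the 44 genes that fell were clustered histone genes. These genes supply the histones that package newly replicated DNA, and their mRNA is normally made in S phase. Of 64 on the array 58 passed the filter, 16 fell (25%, against 0.221% of all genes on the array) and 3 rose. *HIST1H3B*, whose promoter is shown above, went from 13.58 and 13.77 to 11.94 and 11.76, or 3.54-fold lower (SE 0.20 on the log2 scale, adjusted p = 0.0156, limma). *HIST1H2AG* went from 11.20 and 11.61 to 9.58 and 9.63, and *HIST1H2AI* from 10.56 and 10.97 to 8.93 and 9.06. In each, both treated signals were below both untreated ones. The fallen genes have closely similar sequences, so the signal of a probe may include RNA of other members.

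By class, all 12 H4 genes tested had a lower signal after treatment in both clones (median -1.27) and 7 fell, and of 13 H3 genes 11 were lower in both clones (median -0.96) and 6 fell. Of 16 H2A genes 3 fell and 1 rose. Of 12 H2B genes none was called, and their median was 0.85. The 5 H1 genes had a median of 1.88, and *HIST1H1A* and *HIST1H1B* rose, *HIST1H1A* from 2.98 and 2.33 to 10.35 and 10.11 (at least 56.7-fold). The third histone gene that rose was *HIST1H2AL* (at least 3.16-fold). With the clone as a block 23 histone genes fell, with quantile normalization 11 did, and with no filter on dim probes 9 did. The number was 0 in the fit of probes above background on all 4 arrays and 0 with each probe's own variance. Without 1 of the 4 arrays the number was 0 (without either untreated array or treated TET1-KD2) or 1 (without treated TET1-KD1), in fits with 3 arrays.

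**Figure D4:**
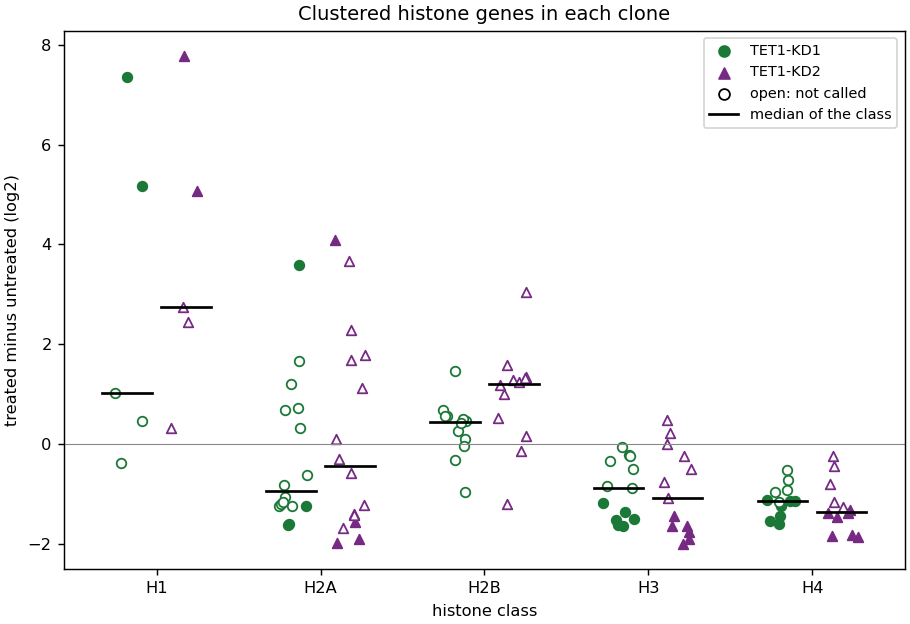
Treated minus untreated log2 signal (y axis) of each tested clustered histone gene by histone class (x axis), green circles for TET1-KD1 and purple triangles for TET1-KD2, open where the gene was not called, with a bar at the median of the class in each clone. The H3 and H4 classes lie mostly below 0 and the H2B class mostly above it.

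Outside the histones, the largest fall among genes above background on all 4 arrays was that of *ND6*, a mitochondrial gene for a subunit of respiratory complex I, from 10.97 and 10.39 to 8.14 and 8.17 (5.76-fold, adjusted p = 0.0144, limma). *SAMD3* followed, from 7.25 and 7.20 to 5.40 and 5.03. Genes that fell to background included *GYG2*, a glycogenin (5.36 and 5.19 to 1.81 and 1.87, at least 2.37-fold), *TBC1D30* (at least 2.66-fold) and *TFAP4* (at least 2.07-fold). Their untreated signals were between 5.04 and 5.72, close to the lower limit of detection, and with normexp correction *TBC1D30* and *TFAP4* were no longer called. Genes of chromatin among the 44, named after their values were seen, were *SUV39H1*, a histone H3 methyltransferase (9.55 and 9.41 to 8.31 and 7.96), and *CDCA7*, a chromatin protein needed for DNA methylation (12.46 and 12.59 to 11.36 and 11.17).

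DNA replication and G1/S genes had lower signals after treatment, but no member passed the test. All 61 were tested, 0 were called, and 60 had a lower signal after treatment in both clones, compared with 50.6% of the genes above background on all 4 arrays. Their median difference was -0.48, against -0.127 over the genes above background on all 4 arrays. *MCM7*, of the replicative helicase, had 16.29 and 16.28 untreated and 15.78 and 15.56 treated (difference -0.62, adjusted p = 0.183, limma). *TYMS*, thymidylate synthase, had 15.49 and 15.60 untreated and 15.06 and 14.68 treated, and *TK1*, thymidine kinase, had 16.77 and 16.90 untreated and 16.68 and 16.65 treated. Of 60 mitosis and G2/M genes 0 were called, 38 were lower in both clones and the median was -0.19.

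The machinery of DNA methylation showed no call by brightest probe among 35 genes, of which 30 were tested. *DNMT1*, the maintenance methyltransferase, had 12.46 and 12.41 untreated and 11.88 and 11.91 treated, a difference of -0.54 (SE 0.18, adjusted p = 0.203, limma). *UHRF1*, which guides it to newly replicated DNA, had 12.47 and 12.43 untreated and 11.68 and 11.75 treated (difference -0.74, adjusted p = 0.119). In both genes the treated signals lay below the untreated ones in each clone. *DNMT3B* differed by 0.22 and *DNMT3A* by 0.44, neither called, although another of 3 *DNMT3A* probes rose by 1.92. *TET2* differed by 0.21, and *TET3* was not above background on any of the 4 arrays. Of 28 genes for uptake and metabolism of 5-aza-dC none was called, and 20 were lower in both clones.

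Few genes of the innate immune and stress lists were called. Shares called up were 1.39% of interferon-stimulated genes, 8.7% of interferon and double-stranded RNA sensor genes and 1.85% of p53 targets. Of all genes on the array, 4.68% were called up. Of 72 interferon-stimulated genes 1 rose, *IRF7*, a transcription factor of the interferon response, from 10.77 and 10.89 to 12.92 and 14.11 (adjusted p = 0.0495, limma), and 6 did so with the clone as a block. *ISG15* had 14.38 and 13.71 untreated and 14.92 and 15.52 treated and was not called (adjusted p = 0.176). Of 23 interferon and double-stranded RNA sensor genes 2 rose, *MB21D1*, now CGAS, a DNA sensor (3.23 and 4.13 to 7.05 and 7.89), and *IFNE*, an epithelial interferon (3.64 and 2.96 to 6.19 and 5.34). None of 24 MHC class I presentation genes was called, and their median difference was -0.15. Of 54 p53 targets only *TP53TG1* rose, from 2.01 and 2.39 to 6.51 and 6.49, while 35 were higher in both clones with a median difference of 0.31.

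In the remaining lists the calls were *CTH*, an enzyme of cysteine synthesis (10.31 and 10.38 to 11.87 and 11.79), among 48 unfolded protein and amino acid response genes, with 4 called with the clone as a block. *IL8* rose among 37 MAPK feedback and EGFR ligand genes (2.7%) and *ASCL2* among 36 WNT targets (2.78%). *SLC2A3*, a glucose transporter gene, rose among 43 hypoxia and glycolysis genes (2.33%). *BCL2L10* rose among 21 BCL2 family genes (4.76%) and *MT1G* among 13 metallothionein genes (7.69%). The share over all genes on the array was 4.68%. *IL8* lay near the limit of detection, with a rise of at least 1.04-fold, and was not called with normexp correction. No cholesterol gene was called among 29. Among 81 ribosomal protein genes *RPL39L* and *RPL3L*, paralogs with restricted expression, rose, *RPL39L* from 5.04 and 2.56 to 9.66 and 9.25 and *RPL3L* from 4.55 and 5.23 to 7.53 and 8.80, and the general subunit gene *RPS2* had 18.42 and 18.51 untreated and 18.35 and 18.34 treated.

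**Figure D5:**
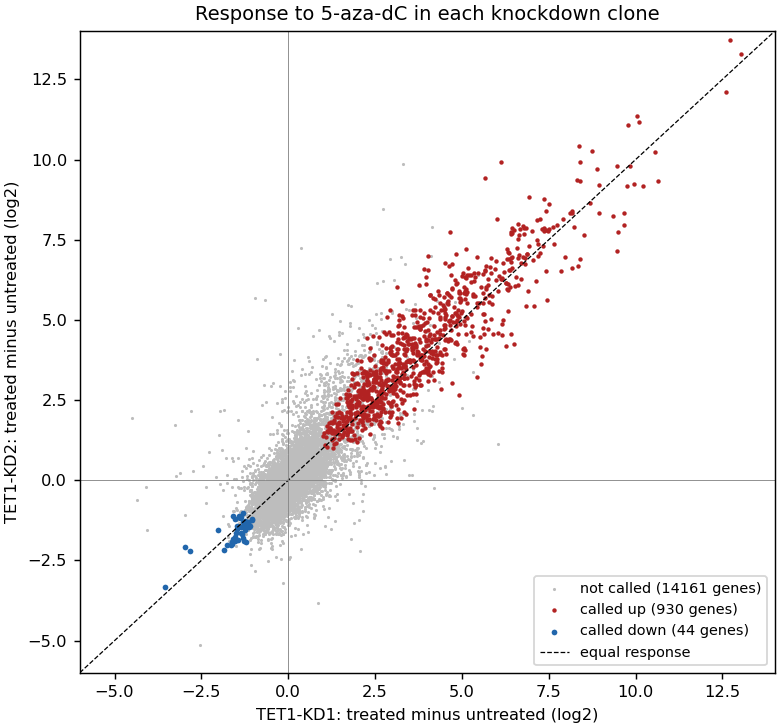
Treated minus untreated log2 signal of the 15135 tested genes in TET1-KD1 (x axis) and TET1-KD2 (y axis), with genes called up in red, called down in blue and others in gray, and a dashed line of equal response. Called genes follow the line, with 65.5% of those called up farther from 0 in TET1-KD2.

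The response of 1 clone was close to that of the other for the called genes, which were selected for a small difference between the clones. Among the 181 genes called up that were above background on all 4 arrays, the median rise was 2.27 in the first clone, TET1-KD1, and 2.77 in TET1-KD2. Of all 930, 609 (65.5%) had the larger difference in TET1-KD2. The median fall of the 44 was -1.37 and -1.49. Detection differed more. In TET1-KD1 2990 probes were above background only after treatment and 884 only before it. For TET1-KD2 the numbers were 4562 and 386. The detection limits of the arrays also differed. The lowest log2 signal above background was 4.19 on untreated TET1-KD1 and 4.61 on untreated TET1-KD2. After treatment it was 3.98 and 4.09. The part of these limits in the counts was not tested. Among the 13224 genes above background on all 4 arrays, 564 rose and 176 fell by at least 1 on the log2 scale in TET1-KD1. For TET1-KD2 these counts were 721 and 563, with 392 up and 94 down in both. *CYP27B1*, which encodes the enzyme that activates vitamin D, moved by at least 1 in opposite directions: in TET1-KD1 it rose from 6.96 to 8.02, while TET1-KD2 went from 10.25 to 8.84. Each clone has 1 array per treatment, so these differences between clones have no error.

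The share of tested genes called up was highest on chromosome X, with 82 of 526 (15.6%), against 6.14% of all tested genes. Chromosome 14 followed with 55 of 509 (10.8%), or 27 of 480 (5.62%) without the *SNORD113* and *SNORD114* copies. Chromosome 19 had 90 of 1142 (7.88%). Of the 761 genes of chromosome X on the array, 10.8% were called up, against 4.68% of all genes on the array. The X-linked cancer-testis antigens were not taken out of the count for chromosome X. Chromosome 21 had 3 of 162 (1.85%). Chromosome 6, which holds the HIST1 genes, had 16 of 803 called down (1.99%), against 0.291% of all tested genes. Of the probes named only as XLOC loci, which are intergenic noncoding transcripts, 2282 of 11836 passed the filter and 185 rose, which is 8.11% of those tested and 1.56% of those on the array. For probes of named genes 1167 rose, which is 5.61% of those tested and 4.03% of those on the array, so the order depends on the base.

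The difference in response between the knockdown and the control clones was tested as an interaction over all 8 arrays. The treated control arrays were on another slide, so here slide and condition cannot be told apart. Of 27287 probes, 1097 (4.02%) had a higher and 425 (1.56%) a lower log2 response in the knockdown clones. Among the genes called in the knockdown clones few differed: of the 930 that rose, 12 had a higher and 15 a lower response there, and 903 were not called different, and of the 44 that fell, 1 had a higher and 1 a lower response. For the 181 genes called up that were above background on all 4 knockdown arrays, the median response was 2.27 and 2.77 in the knockdown clones. In CONT1 and CONT2 it was 2.35 and 2.59. Over all 930 genes called up, most of which rose from background, the medians were 3.33 in TET1-KD1 and 3.71 in TET1-KD2. For CONT1 and CONT2 they were 3.74 and 3.8. Both sets were selected for a rise on the knockdown arrays, which can favor the knockdown response in this comparison. *DNMT1*, which was not called in the knockdown clones, had a response lower by 1.27 on the log2 scale than in the control clones (adjusted p = 0.026, limma).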

How the data were processed

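Per the study's methods, total RNA was amplified and labeled, and the cRNA made from it was hybridized to a 1-color Agilent human gene expression array. The authors deposited the scanner output of each array, with a background-subtracted intensity per spot and the scanner software's flags, per the file headers. They also deposited a value table of processed intensities. Control spots and outlier spots were left out, intensities were scaled so that the 75th percentile of every array equaled the geometric mean of the 8 percentiles, the log2 was taken and the spots of a probe were averaged. The filter on dim probes required a signal above background on each array of some group, the control groups included, which left 27287 of 50543 probes. Differences between treated and untreated knockdown clones were fitted over the 4 arrays with limma 3.58.1 in R 4.3.3, with Benjamini-Hochberg adjustment and a threshold of 0.05, and figures were drawn with matplotlib 3.10.9. Each gene was represented by its brightest probe. The study's methods name t tests with the same adjustment, run here as an alternative with each probe's own variance.

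Treated and untreated arrays of a clone share that clone by their titles, and the deviations of same-numbered arrays from their group means correlated (r = 0.476), so the clone was also used as a block. The p-values use the spread between the 2 clones of a condition, which limma moderated toward a value drawn from all tested probes. With 2 residual degrees of freedom per probe, they rest in part on that shared value, and the number of arrays limits the precision. For genes not above background in either untreated clone, the untreated spread is that of background signals. Alternatives were another background correction, normalization, filter, offset or variance, the deposited value table, all 8 arrays and leaving out each array. The genes named were those with the largest change in each class and the leading and brightest uncalled members of each list. The gene lists and members were chosen with earlier results of these data known. Probe positions are those of the array annotation on hg19. A few genes that the rule selects are not reported here.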

Additional observations from a re-analysis of the deposited data

Results flagged for a closer look

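The response to 5-aza-dC was tested for a difference between the knockdown and the control clones, and 1097 probes had a higher and 425 a lower log2 response in the knockdown clones. The treated control arrays lay on another slide, so slide and condition cannot be told apart. *GYG2* had a fitted difference of -3.84 on the log2 scale (adjusted p = 0.00747, limma), with 5.36 and 5.19 untreated and 1.81 and 1.87 treated in the knockdown clones. The control clones gave 2.12 and 1.96 untreated and 2.41 and 2.46 treated, so the fitted difference rests on signals near background, and the fall in the knockdown clones was at least 2.37-fold. *HAAO*, an enzyme of tryptophan breakdown, rose in the knockdown clones from 3.16 and 3.39 to 6.17 and 6.28 and in the control clones from 2.44 and 2.46 to 7.12 and 7.14 (fitted difference -1.73, adjusted p = 0.0143). *HLA-DRB4*, an MHC class II gene, had 3.50 and 3.09 untreated and 5.58 and 5.68 treated in the knockdown clones, and 6.85 and 5.87 untreated and 4.98 and 4.76 treated in the control clones (fitted difference 3.83, adjusted p = 0.0146). *PNMA2*, a neuronal antigen gene, had 2.09 and 2.45 untreated and 6.79 and 6.81 treated in the knockdown clones, and 4.19 and 4.72 untreated and 6.59 and 6.75 treated in the control clones (fitted difference 2.32, adjusted p = 0.0175). The treated signals of *PNMA2* were close in both kinds of clone. The untreated knockdown signals of *HAAO*, *HLA-DRB4* and *PNMA2* were not above background, so their fitted differences are not measured sizes.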

How the results depend on the processing

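For the treated against untreated knockdown clones, the 1614 probes called up became 763 with normexp correction, 766 with an offset of 50, 75 with only probes above background on all 4 arrays, 0 with each probe's own variance and 2430 with all 8 arrays in the fit, and 866 to 1751 when 1 array was left out. The 73 called down became 147 with quantile normalization, 45 with no filter, 0 with only probes above background on all 4 arrays, 0 with own variance and 790 with all 8 arrays, and 5 to 48 when 1 array was left out. With the clone as a replicate block, 2299 rose and 226 fell. For the difference in response, the 1097 higher probes became 433 with normexp correction, 487 with no filter and 664 with own variance, and 253 to 575 without 1 array. The 425 lower probes became 228 with no filter and 664 with an offset of 50, and 101 to 240 without 1 array. The causes were not tested. Of 77 named genes that were called, 55 were still called with normexp correction, 71 with quantile normalization, 77 with the deposited value table, 77 with the block, 48 to 64 without 1 array and 0 with own variance, and none reversed. In the fit of probes above background on all 4 arrays, 10 of 24 were still called. Folds from background are limited by the dimmest detectable signal.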
